A study of Macaca mulatta with 6 samples.

Results

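Genes of the vesicle release machinery were followed in laser-captured serotonin neurons of female rhesus macaques. They are the SNAREs and their partners, the synaptotagmins, the SV2 and synapsin proteins, priming factors and dynamins. Members were taken by gene symbol, by a rule chosen with earlier results of these data known. They are the probe sets whose annotation gives a single symbol that begins with SYT or STX and a digit, STXBP, VAMP, SNAP and a number, CPLX, SV2, CADPS or DNM and a digit, or that is a synapsin gene or SYP, NSF, NAPA, NAPB, UNC13A or RIMS1. The rule found 70 probe sets of 44 genes, among 52766 probe sets that measure transcripts and 14132 genes with a single-symbol probe set. SNAP25, NSF, NAPB, SYT11, CPLX1, SYN1, SYP, UNC13A and RIMS1 have no named probe set here and were not analysed here.

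The 6 arrays came from 6 monkeys, 1 array each. In 2 monkeys the capsules under the skin held estrogen and progesterone, in 2 they held estrogen, and 2 monkeys were given placebo, each for 1 month before the neurons were cut from the dorsal raphe nucleus. Ovx stands in the placebo titles alone and is taken to mean ovariectomized; the hormone titles give only the treatment, and neither doses nor ages are given in the sources used here.

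As background, a vesicle fuses when a VAMP protein on it zips together with a syntaxin and a SNAP-25-like protein on the target membrane. Sec1-type proteins and complexins hold and clamp this complex, CAPS proteins prime it, and synaptotagmin triggers fusion when calcium enters. NSF and the alpha-SNAP protein then pull the SNAREs apart, and clathrin and dynamin retrieve the membrane. In serotonin neurons these steps release serotonin at axon varicosities and from cell bodies and dendrites.

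The arrays differed in signal. Each array's floor was set from its own 59 control probe sets that should find no target, at their 95th percentile. It lay at signals of 74.9 and 283 with both hormones, 30.0 and 51.6 with estrogen, and 216 and 221 with placebo, always with replicate 1 first. A signal near 200 was therefore above the floor on some arrays and below it on others. Estrogen+progesterone 2 stood apart. Over the 38 member genes tested, its normalized values correlated with those of the other 5 arrays at r of -0.0364 to 0.246, while estrogen+progesterone 1 and estrogen 1 correlated at 0.969 and the 2 placebo arrays at 0.704. These r values are across genes of 1 pair of arrays, and genes are not independent replicates.

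Defining markers of serotonin neurons were only partly measured. Of 8 listed, TPH2, FEV, SLC18A2, GCH1 and HTR1A have a named probe set. Above the floor were 3 and 2 of these 5 with both hormones, 4 and 5 with estrogen, and 2 and 3 with placebo. TPH2, the serotonin-synthesizing enzyme, was above it on the estrogen arrays alone. All 6 named general neuronal markers were above the floor on every array, with summed signals of 19147 and 2510 with both hormones, 20240 and 22898 with estrogen, and 7723 and 10554 with placebo. Astrocyte markers were above it for 6 and 4 of 6 genes with both hormones, 6 and 6 with estrogen, and 5 and 5 with placebo, and their sums were 58885 and 2965, 52069 and 62627, and 17084 and 16054 in that order of groups. The 3 named oligodendrocyte markers were above it on every array, with sums of 51218 and 2723 with both hormones, 36856 and 52739 with estrogen, and 33774 and 46791 with placebo. Glial markers were thus measured beside neuronal ones, and many members are also expressed outside neurons. In such bulk samples fewer cells of a type and less RNA per cell cannot be told apart.

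Most release genes stood above the floor with estrogen and on 1 array of both hormones. Each gene is given by its probe set with the highest mean. Above the floor were 36 and 14 of the 44 genes with both hormones, 39 and 37 with estrogen, and 22 and 26 with placebo. As percentages these were 81.8% and 31.8%, 88.6% and 84.1%, and 50% and 59.1%. Among all 14132 named genes the shares were 68.8% and 34.0%, 79.1% and 74.6%, and 50.6% and 50% in the same order. The members thus followed the arrays' general share of genes above the floor, low on estrogen+progesterone 2 and on both placebo arrays.

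**Figure D1:**
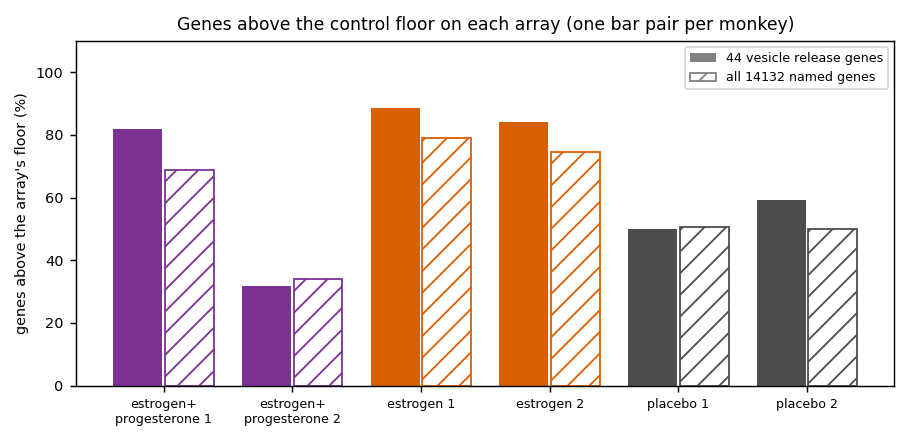
Share of genes (percent, from 0) above the array's own control floor, with filled bars for the 44 vesicle release genes and hatched bars for all 14132 named genes, 1 pair of bars per monkey. Release genes run from 31.8% on estrogen+progesterone 2 to 88.6% on estrogen 1, and the hatched bars run in parallel from 34.0% to 79.1%.

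Of the 44 genes, 6 were above the floor on all 6 arrays: CPLX2, SNAP47, STXBP3, SV2A, SYN2 and SYT4. Another 13 were above it on 5 arrays, and STX11, a syntaxin of cytotoxic lymphocyte granules, on none by this probe set. Ranks within an array do not depend on its scaling. By rank, 13 and 7 members lay at or above the 90th percentile of all probe sets with both hormones, 15 and 14 with estrogen, and 10 and 14 with placebo. The median member lay at the 79.3 and 59.0 percentile with both hormones, 77.8 and 80.7 with estrogen, and 63.4 and 72.6 with placebo. These ranks place each gene's probe set of highest mean among all probe sets, a choice that raises them. They were not set against all genes ranked in the same way.

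**Figure D2:**
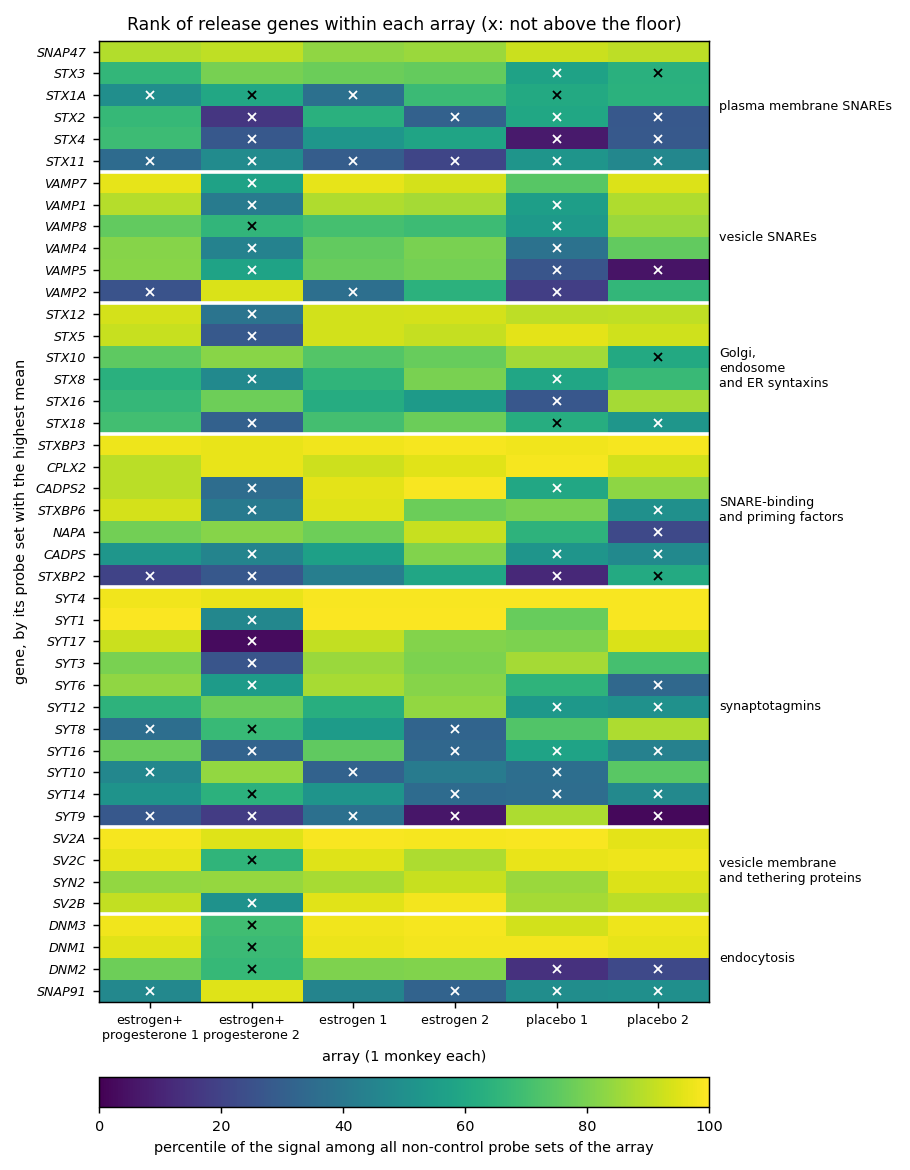
Percentile of each gene's signal among all non-control probe sets of an array (colour, 0 to 100) for the 44 release genes in rows, grouped by role, and the 6 arrays in columns; a cross marks a signal not above the array's floor. SYT4, SV2A and STXBP3 are bright in every column, and crosses crowd the columns of estrogen+progesterone 2 and both placebo arrays.

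Among SNAREs of the plasma membrane, SNAP47, a relative of SNAP-25, was the steadiest. Its signals were 524 and 454 with both hormones, 359 and 420 with estrogen, and 500 and 459 with placebo, all above the floor. The neuronal syntaxin gene STX1A gave 72.4 and 221 with both hormones, 29.0 and 144 with estrogen, and 207 and 221 with placebo. STX1A was above the floor only on estrogen 2 and placebo 2, and on placebo 2 its signal and the floor round to the same value. STX3, a syntaxin of ribbon synapses and apical membranes, gave 129 and 339 with both hormones, 226 and 233 with estrogen, and 193 and 220 with placebo, and this probe set did not clear the floor in either placebo monkey. The other STX3 sets, at 97.6 and 282 and at 64.2 and 326 with placebo, did so on placebo 2. STX2 and STX4, syntaxins found in many cell types, and STX11 had means below the filter and entered no test.

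Vesicle SNAREs differed in which arrays were high. VAMP7, the SNARE of late endosomes and lysosomes, gave 1546 and 208 with both hormones, 1750 and 966 with estrogen, and 279 and 637 with placebo. VAMP1, a synaptobrevin of nerve terminals, gave 545 and 127 with both hormones, 557 and 468 with estrogen, and 186 and 417 with placebo. For both genes estrogen+progesterone 2 was the lowest array and the groups of both hormones and placebo overlapped. VAMP2, the main synaptobrevin of brain synapses, gave 25.2 and 532 with both hormones, 28.5 and 119 with estrogen, and 37.4 and 234 with placebo. Its highest signal was thus on estrogen+progesterone 2, and it was above the floor there, on estrogen 2 and on placebo 2. VAMP8, an endosomal SNARE, gave 210 and 250 with both hormones, 139 and 146 with estrogen, and 178 and 374 with placebo, highest on placebo 2.

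VAMP5, a SNARE described in muscle, was dim with placebo. VAMP4, which works between endosomes and the Golgi, was dim there by part of its probe sets. VAMP5 gave 316 and 209 with both hormones, 221 and 274 with estrogen, and 58.1 and 15.6 with placebo. The 2 placebo values were the lowest of the 6. For VAMP4 the probe set with the highest mean gave 309 and 142 with both hormones, 203 and 291 with estrogen, and 107 and 291 with placebo, so the groups overlapped. A second, MmugDNA.33384.1.S1_at, gave 177 and 174 with both hormones, 364 and 162 with estrogen, and 30.6 and 36.6 with placebo, with the placebo monkeys lowest. The set MmugDNA.33384.1.S1_s_at gave 337 and 69.0 with both hormones, 365 and 158 with estrogen, and 52.7 and 104 with placebo. By that set estrogen+progesterone 2 lay below placebo 2.

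Syntaxins of inner membranes were mostly well measured. STX5 of the Golgi had signals of 732 and 65.2 with both hormones, 1008 and 727 with estrogen, and 709 and 533 with placebo. STX12 of recycling endosomes gave 963 and 109 with both hormones, 974 and 925 with estrogen, and 461 and 462 with placebo. In both genes estrogen+progesterone 2 lay below the floor and the other 5 arrays above it. STX10 and STX16 of the trans-Golgi network were above it on 5 arrays, and STX8 of late endosomes on 4. STX18 of the endoplasmic reticulum gave 150 and 76.0 with both hormones, 137 and 252 with estrogen, and 214 and 170 with placebo, and was above the floor on 3 arrays.

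Among SNARE-binding genes, STXBP3, a Sec1-type partner of STX4, was near the top of every array by its probe set with the highest mean. Its signals were 2078 and 615 with both hormones, 2839 and 2876 with estrogen, and 1041 and 1662 with placebo, at the 96.5 percentile or higher on all 6. CPLX2, the complexin that clamps the SNARE complex, gave 585 and 616 with both hormones, 904 and 1254 with estrogen, and 1387 and 553 with placebo. Its highest and lowest signals were both from placebo monkeys. NAPA, which encodes alpha-SNAP, gave 248 and 359 with both hormones, 236 and 757 with estrogen, and 225 and 44.6 with placebo.

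The 2 priming genes behaved differently from each other. CADPS2, whose protein primes dense-core vesicles, gave 604 and 97.0 with both hormones, 1553 and 3587 with estrogen, and 204 and 351 with placebo. Both estrogen monkeys lay above all others. CADPS, the other CAPS gene, gave 80.4 and 145 with both hormones, 65.8 and 312 with estrogen, and 170 and 149 with placebo. It was above the floor on the estrogen arrays and estrogen+progesterone 1, with the group ranges of the signals overlapping.

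Of 11 synaptotagmin genes, SYT4 alone was above the floor on all 6 arrays by its probe set of highest mean. SYT1, the fast calcium sensor of synaptic release, gave 6659 and 151 with both hormones, 8595 and 7648 with estrogen, and 296 and 2079 with placebo by MmugDNA.40274.1.S1_s_at. It lay at the 99.4 and 46.3 percentile with both hormones, 99.6 and 99.6 with estrogen, and 76.8 and 99.1 with placebo. The estrogen monkeys were thus close together and each of the other groups was split. SYT4, an isoform of large vesicles that lacks a conserved calcium-binding residue, gave 2412 and 611 with both hormones, 4366 and 4527 with estrogen, and 1673 and 2294 with placebo. It lay at the 97.8 and 96.5 percentile with both hormones, 98.9 and 99.2 with estrogen, and 98.9 and 99.2 with placebo. After normalization its log2 values were 10.55 and 10.11 with both hormones, 11.21 and 11.48 with estrogen, and 11.24 and 11.51 with placebo. SYT3, a synaptotagmin of plasma membranes, gave 272 and 59.6 with both hormones, 420 and 302 with estrogen, and 399 and 257 with placebo. SYT6 gave 344 and 195 with both hormones, 488 and 330 with estrogen, and 227 and 87.8 with placebo. SYT10, known as a calcium sensor for IGF-1 secretion in mouse olfactory bulb neurons, gave 65.6 and 375 with both hormones, 22.3 and 51.7 with estrogen, and 101 and 282 with placebo. SYT3 and SYT17 were above the floor on every array but estrogen+progesterone 2, and SYT10 was above it on replicate 2 of each group. SYT9, above it on placebo 1 alone, and SYT14 did not pass the filter.

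Of the vesicle membrane genes, SV2A and SYN2 were above the floor on every array, and SV2B and SV2C on every array but estrogen+progesterone 2. SV2A, the binding site of the drug levetiracetam, gave 3628 and 559 with both hormones, 4836 and 3356 with estrogen, and 1694 and 739 with placebo, at the 95.2 percentile or higher on all 6 arrays. SV2B, its relative, gave 657 and 176 with both hormones, 1412 and 2741 with estrogen, and 398 and 449 with placebo, with both estrogen monkeys highest. SV2C gave 1475 and 249 with both hormones, 1312 and 524 with estrogen, and 775 and 1003 with placebo, and the signals of the groups overlapped. SYN2, a synapsin that tethers vesicles to the cytoskeleton, gave 354 and 381 with both hormones, 497 and 752 with estrogen, and 373 and 634 with placebo.

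Dynamins cut vesicles from the membrane during retrieval. DNM1, the neuronal form, gave 1338 and 263 with both hormones, 2006 and 2643 with estrogen, and 1152 and 767 with placebo. DNM3 gave 2650 and 272 with both hormones, 2818 and 3133 with estrogen, and 547 and 999 with placebo. By these probe sets estrogen+progesterone 2 was lowest in both genes and the only array below the floor. A second DNM3 set gave 110 and 222 with both hormones, 85.3 and 73.3 with estrogen, and 360 and 43.9 with placebo. It was lowest on placebo 2, and was below the floor there and on estrogen+progesterone 2. DNM2, the form of all tissues, gave 237 and 257 with both hormones, 286 and 316 with estrogen, and 29.4 and 44.4 with placebo by MmugDNA.16450.1.S1_at, so both placebo monkeys were lowest. SNAP91, the clathrin assembly protein AP180 by its common name, gave 65.8 and 558 with both hormones, 41.0 and 35.1 with estrogen, and 157 and 159 with placebo.

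**Figure D3:**
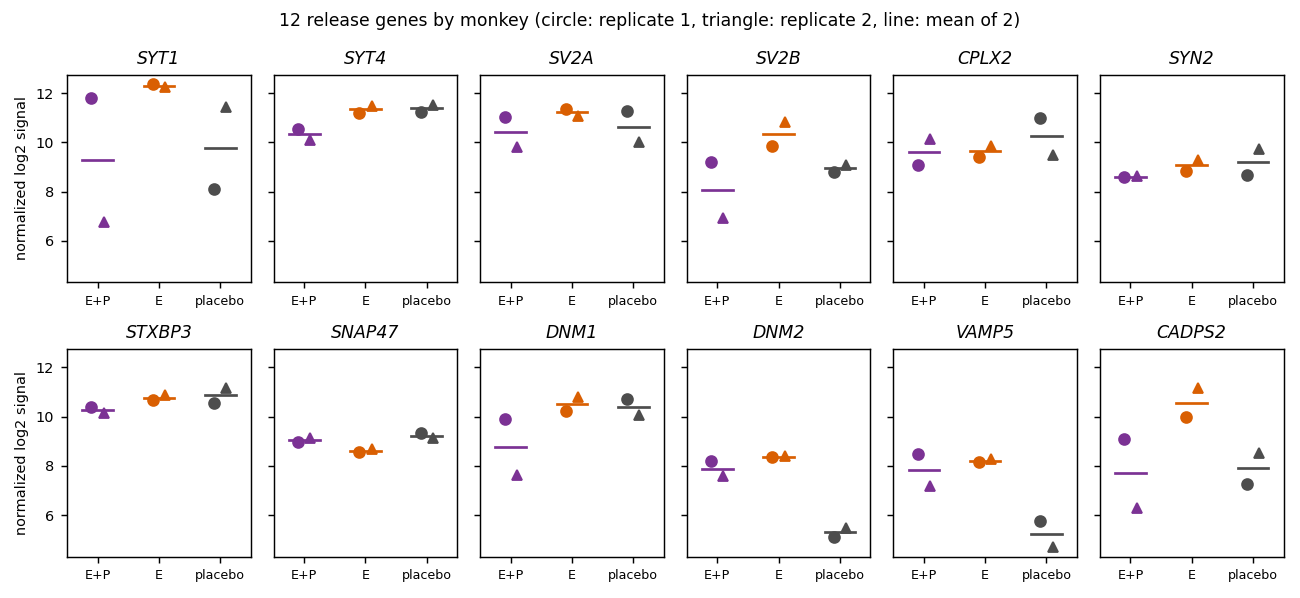
Normalized log2 signal of 12 release genes, each panel with both hormones, estrogen and placebo from left to right, 1 point per monkey and a line at the mean of 2. DNM2 and VAMP5 have both placebo points below all others, and SYT1 is split by monkey with both hormones and with placebo. SYT4, STXBP3, SNAP47 and SYN2 vary less than SYT1, and SYT4 is lowest with both hormones.

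Probe sets of 1 gene did not always move together. Names ending in _s_at or _x_at, 9 and 1 of the 70, mark sets whose probes can bind related transcripts. For SYT1, MmuSTS.3945.1.S1_at gave 4071 and 304 with both hormones, 5275 and 5958 with estrogen, and 851 and 366 with placebo. MmugDNA.40274.1.S1_at gave 3536 and 149, 5567 and 2644, and 1259 and 890 in that order of groups. Both were high on the estrogen arrays and estrogen+progesterone 1, as the first set was. The remaining set gave 274 and 512 with both hormones, 1343 and 449 with estrogen, and 384 and 322 with placebo, and was not low on estrogen+progesterone 2. For STXBP3, MmugDNA.1211.1.S1_x_at was at the 9.8 percentile on estrogen+progesterone 2, where the set with the highest mean was at 96.5. MmuSTS.3940.1.S1_at of STXBP3 was at 70.0 there and at 76.8 on placebo 1. Both of these other sets were under the floor on estrogen+progesterone 2.

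**Figure D4:**
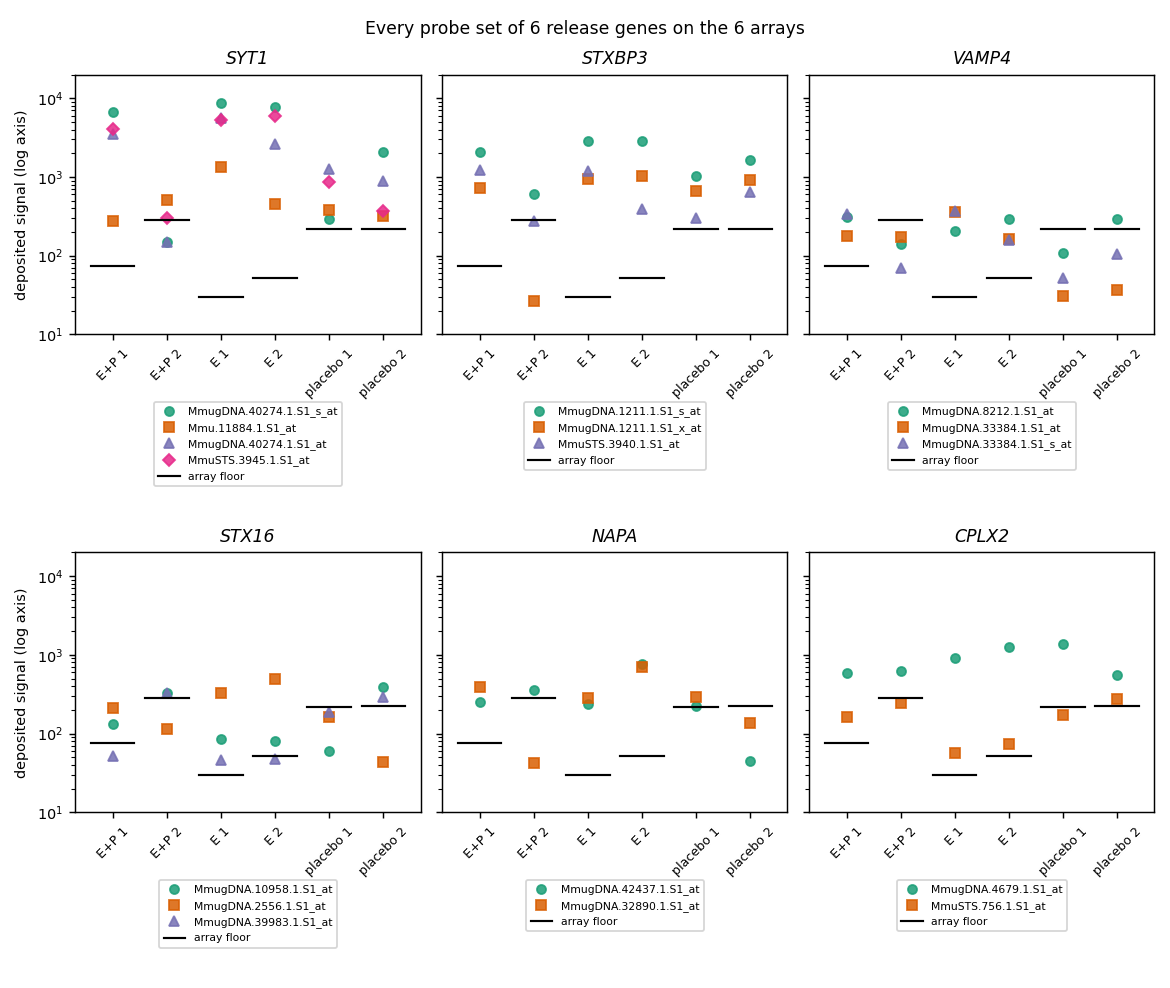
Deposited signal (log axis) of every probe set of SYT1, STXBP3, VAMP4, STX16, NAPA and CPLX2 on the 6 arrays, with a horizontal line at each array's floor. For SYT1, 3 of the 4 sets have their lowest signal on estrogen+progesterone 2, at 151, 149 and 304, while the remaining one is at 512 there; for VAMP4, 2 of the 3 sets lie below the floor on both placebo arrays.

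Estrogen was set against placebo to see the effect of that hormone by itself. Values are log2 differences of signals after adding 16 and quantile normalization, which understate changes of low signals. No member passed the test. Of 26383 probe sets tested with limma, 0 had an adjusted p under 0.05 (0% called), and 2065 had an unadjusted p under 0.05. Of the 44 member genes 38 passed the filter on low means, as did 55 of the 70 probe sets. A gene can pass that filter through the group in which it is high.

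By the probe set that stands for each gene, DNM2 and VAMP5 differed most. Other sets were as far apart: MmugDNA.33384.1.S1_at of VAMP4 stood at 2.93 and MmugDNA.2556.1.S1_at of STX16 at 2.47. The sets that stand for VAMP4 and STX16 were at 0.98 and -0.09, and their remaining sets at 2.14 and -0.95. DNM2 stood at 3.07 ± 0.81 (SE, n = 2 monkeys per group) higher with estrogen and VAMP5 at 2.98 ± 0.88, each with an adjusted p of 0.635 from limma. In neither placebo monkey did they clear the floor, and in both estrogen monkeys they did, so they have only a bound. On the normalized scale DNM2 was at least 1.94-fold higher with estrogen and VAMP5 at least 1.72-fold, with each placebo array taken at its floor, or at the gene's own value if larger. From the deposited signals, a measure added after the data were seen, the bounds were 1.38-fold and 1.13-fold. These bounds hold no allowance for the spread between monkeys. The other DNM2 probe set cleared the floor on none of the 6 arrays and was not tested. Both genes passed the filter on low means by way of their signals with hormone. With that filter at the 75th percentile neither was tested. VAMP5 also failed to pass it with the estrogen and placebo arrays alone. Array weights in limma gave 434 calls (1.64% of the probe sets tested), among them DNM2 with an adjusted p of 0.0406 and VAMP5 with 0.0457.

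Priming, sensing and vesicle genes followed. CADPS2 stood at 2.66 ± 1.09 and NAPA at 2.26 ± 0.95. A second NAPA probe set stood at 1.41. SYT1 stood at 2.54 ± 1.58, with its other probe sets at 2.23, 0.76 and 0.61. All 4 SYT1 sets thus had a mean above that of placebo, and for MmugDNA.40274.1.S1_at the groups overlapped. Without placebo 1 the SYT1 difference was 0.85 and without placebo 2 it was 4.25. SYT6 stood at 1.79 ± 0.91, SV2B at 1.40 ± 0.97 and SYT12 at 1.02 ± 0.85. SYT12 had signals of 88.0 and 382 with estrogen and, under the floor, of 175 and 163 with placebo, so the signals overlapped before normalization and the difference was 0.14 without it. SYT8 was the only member lower with estrogen by at least 1 and with groups that did not overlap, at -1.81 ± 0.91, with signals of 60.5 and 35.4 with estrogen and 272 and 409 with placebo. Adjusted p from limma was 0.635 to 0.752 for these 7 genes. NAPA stood at 3.35 without placebo 1 and at 1.37 without placebo 2, while SV2B stood at 0.87 and SYT12 at 0.41 without estrogen 2.

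Counts of members stand beside the share of all genes counted the same way. On the normalized scale the groups did not overlap for 14 of 38 member genes higher with estrogen (30.6% of all 9781 genes) and for 4 lower (19.8% of all genes). Requiring also a difference of 1 or more left 8 higher (19.5% of all genes) and 1 lower (10.3% of all genes). Unadjusted p was under 0.05 for 4 members higher with estrogen, CADPS2, DNM2, NAPA and VAMP5 (3.68% of all genes), and for 0 lower (1.24% of all genes). The members' median was 0.41 and 23 of 38 lay above 0, against a median of 0.28 and 60.6% above 0 over all genes. Without the filter the median was 0.29 over all 44 genes, against 0.17 over 14132 genes. By role the medians were 1.14 for 6 SNARE-binding and priming genes, 0.90 for 6 vesicle SNAREs, 0.49 for 4 genes of retrieval, 0.23 for 4 vesicle membrane genes, 0.17 for 9 synaptotagmins, 0.16 for 6 inner syntaxins and -0.39 for 3 plasma membrane SNAREs.

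Array floors and markers of other cells moved with this comparison. Low floors were those of the estrogen arrays and high floors those of the placebo arrays, so hormone and floor cannot be told apart. With the share of probe sets above the floor as a covariate, whose slope comes mainly from the 2 arrays of both hormones, CADPS2 stood at -0.11, SYT1 at -2.82, SV2B at -0.85, SYT6 at 0.05 and SYT8 at -0.50, while DNM2 stood at 2.45, VAMP5 at 1.57, NAPA at 2.61 and SYT12 at 1.99. All 6 tested astrocyte markers were above 0 (median 1.47), against 2 of 6 general neuronal markers (median -0.10), 5 of 9 microglial markers (0.38), 2 of 3 oligodendrocyte markers (0.52), 2 of 4 endothelial markers (0.72), 1 of 3 serotonin markers (-0.23) and 0 of 2 erythrocyte markers (-1.80). Their part in the differences of release genes was not tested.

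Both hormones together were set against placebo next, and again no member passed. Limma called 0 of 26383 probe sets (0% called), with 870 at an unadjusted p under 0.05. The placebo monkeys are those of the comparison above. DNM2 stood at 2.58 ± 0.81 (SE, n = 2 monkeys per group) and VAMP5 at 2.62 ± 0.88, each with an adjusted p of 0.992 from limma. On estrogen+progesterone 2 they gave 257 and 209, under that array's floor of 283, and no bound is given. Neither passed the filter on low means in the fit of both hormones and placebo alone. NAPA stood at 1.85 ± 0.95, and its second probe set at -0.36, with signals of 390 and 42.8 with both hormones and 290 and 135 with placebo. The first set stood at 2.92 without placebo 1 and at 0.94 without placebo 2.

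Members lower with both hormones were STX5 at -2.12 ± 1.12, DNM1 at -1.61 ± 0.96, SV2C at -1.52 ± 1.0, SYT8 at -1.44 ± 0.91 and SYT4 at -1.04 ± 0.81, all with an adjusted p of 0.992 from limma. Before normalization the signals of STX5, DNM1, SV2C and SYT4 overlapped between the groups. STX5, DNM1 and SV2C were under the floor on estrogen+progesterone 2. SYT8 gave 44.7 and 260 with both hormones, each under its floor, against 272 and 409 with placebo, each over it. Set against that floor it was at least 2.05-fold lower with both hormones on the normalized scale and 2.29-fold from the deposited signals. Without estrogen+progesterone 2 the differences were -0.44 for STX5, -0.53 for DNM1, -0.30 for SV2C, -2.19 for SYT8 and -0.91 for SYT4. Without estrogen+progesterone 1 they were -3.69 for STX5, -2.55 for DNM1, -2.56 for SV2C and -0.73 for SYT8, and without placebo 2 SYT8 stood at -0.98. With DNM2 at 2.94, VAMP5 at 3.33 and NAPA at 1.80 without estrogen+progesterone 2, the 3 higher members were above 0 there too.

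After normalization the groups did not overlap for 5 of 38 members higher with both hormones (11.7% of all genes) and 8 lower (12.7% of all genes). With a difference of at least 1 as well, they were 3 higher (7.74% of all genes) and 5 lower (8.12% of all genes). Unadjusted p was under 0.05 for DNM2 and VAMP5 upward (1.34% of all genes) and for 0 downward (1.04% of all genes). The members' median was -0.22, with 14 of 38 above 0, against -0.10 and 46.2% above 0 over all genes. It was 0.41 without estrogen+progesterone 2. All 4 vesicle membrane genes lay below 0 (median -0.74), as did 5 of 9 synaptotagmins (median -0.49), while 3 of 6 vesicle SNAREs lay above 0 (median 0.14). Beside these, 1 of 6 neuronal markers lay above 0 (median -0.88), 3 of 6 astrocyte markers (0.00) and 0 of 3 oligodendrocyte markers (-1.0). So did 0 of 3 serotonin (-0.54), 4 of 9 microglial (-0.26), 3 of 4 endothelial (0.29) and 0 of 2 erythrocyte markers (-1.24). The part of these cells was not tested.

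Both hormones were set against estrogen to see what progesterone added; these are the monkeys of the comparisons above. CADPS2 stood at -2.88 ± 1.09 (SE, n = 2 monkeys per group), SV2B at -2.28 ± 0.97 and SYT1 at -3.03 ± 1.58, lower with both hormones. The other SYT1 probe sets stood at -2.11, -2.30 and -0.36. The groups overlapped for those at -2.30 and -0.36. DNM1 stood at -1.74 ± 0.96, SYT3 at -1.48 ± 1.02, STX18 at -1.08 ± 0.89 and SYT4 at -1.01 ± 0.81. By the probe sets that stand for them, all these lower genes but SYT4 were under the floor of 283 on estrogen+progesterone 2. The sizes of their differences are thus uncertain. In the other direction SNAP91 stood at 1.89 ± 1.06 and SYT10 at 1.37 ± 0.98. None passed, each with an adjusted p of 0.799 from limma, which called 0 of 26383 probe sets (0% called), with 464 at an unadjusted p under 0.05.

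The 7 negative differences were smaller without estrogen+progesterone 2. Without it SYT1 stood at -0.52, SYT3 at -0.22, STX18 at -0.26, DNM1 at -0.67, SV2B at -1.29, CADPS2 at -1.63 and SYT4 at -0.87, and SNAP91 and SYT10 did not pass the filter. Without estrogen+progesterone 1 limma called 3599 probe sets (13.6% of those tested), 2341 of them lower with both hormones. They included 13 of 53 member probe sets, 12 lower and 1, of SNAP91, higher. That fit has a lone monkey given both hormones, which is assumed to vary like the other groups. In that fit SYT1 stood at -5.30, SYT3 at -2.72, STX18 at -1.91, DNM1 at -2.66, SNAP91 at 3.26 and SYT10 at 2.22. By the naming rule, both arrays of the combined treatment lay below both estrogen arrays for all 7 after normalization. The deposited signals showed this for CADPS2, SV2B, SYT1, DNM1, SYT3 and SYT4, and overlapped for STX18. CADPS2 gave 604 and 97.0 with both hormones against 1553 and 3587 with estrogen, and SV2B gave 657 and 176 against 1412 and 2741. With the share above the floor as a covariate CADPS2 stood at -0.37 and SV2B at -0.25.

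**Figure D5:**
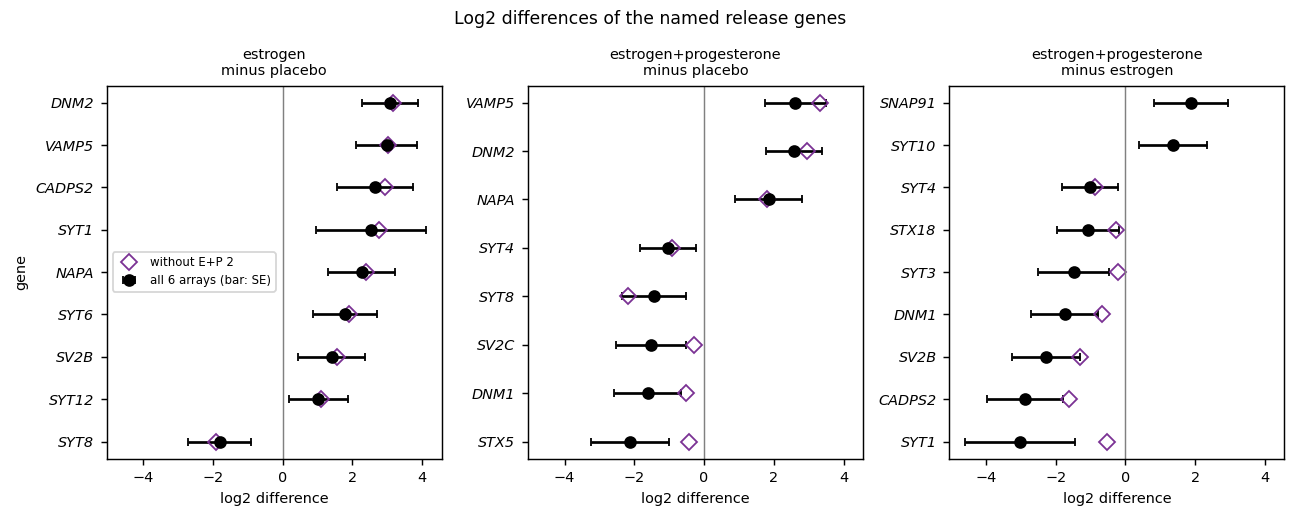
Log2 differences (horizontal axis) of the named release genes in the 3 comparisons, filled points with bars of 1 SE from all 6 arrays and open diamonds from the fit without estrogen+progesterone 2. For DNM2 and VAMP5 the diamonds lie within the SE bars against placebo in both treatments, while SYT1 is at -3.03 with all arrays and at -0.52 without that array for both hormones against estrogen.

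After normalization the groups did not overlap for 13 of 38 members lower with both hormones (17.9% of all genes) and for 4 higher (13.5% of all genes). With a difference of at least 1 as well, they were 7 lower (10.1% of all genes) and 2 higher (6.57% of all genes). Unadjusted p was under 0.05 for CADPS2 and SV2B downward (0.225% of all genes) and for 0 upward (0.481% of all genes). The members' median was -0.61, with 9 of 38 above 0, against -0.44 and 34% above 0 over all genes, and it was -0.19 without estrogen+progesterone 2. None of the 6 tested neuronal, 6 astrocyte and 3 oligodendrocyte markers was above 0 here, with medians of -0.58, -1.37 and -1.52. Of the other markers, 2 of 3 serotonin (median 0.12) and 2 of 2 erythrocyte markers (0.56) were above 0. So were 1 of 9 microglial (-0.65) and 1 of 4 endothelial markers (-0.52). The part of these cells was not tested.

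Other genes of the release cycle were counted from a list. Of 96 listed genes of the active zone, vesicle membrane, endocytosis, other SNAREs and synaptotagmin-like proteins, 56 were tested and 0 passed in any of the 3 comparisons. With estrogen, 26 of 56 lay above placebo (60.6% of all genes), with a median of -0.12. Unadjusted p was under 0.05 for 2 higher (3.68% of all genes) and 1 lower (1.24% of all genes). UNC13D, a priming factor of secretory granules, stood at -2.46 ± 0.89 with signals of 25.6 and 41.8 with estrogen and 367 and 388 with placebo. SCFD2, related to Sec1-type SNARE partners, stood at 2.17 ± 0.82 with signals of 247 and 145 with estrogen and 43.7 and 80.3 with placebo. PPFIA2, a liprin of the active zone, stood at 2.55 ± 1.04. UNC13D was under the floor on both estrogen arrays, and SCFD2 and PPFIA2 on both placebo arrays. The sizes of their differences, here and below, are thus uncertain, and no bounds were taken. The smallest unadjusted p of the list with both hormones against placebo was that of SCFD2, at 2.56 ± 0.82, and with both hormones against estrogen that of UNC13D, at 2.09 ± 0.89, with signals of 116 and 466 with both hormones. Adjusted p from limma was 0.635, 0.992 and 0.799 in the 3 comparisons. With both hormones 18 of 56 lay above placebo (46.2% of all genes), with a median of -0.62, and 19 of 56 above estrogen (34% of all genes), with a median of -0.47.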

How the data were processed

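Each array's values are linear intensities, 1 per probe set. As the values show, the authors had scaled the deposited intensities per array: the mean without the 2% at either end is close to 200. Column extraction and biotin labelling are per the labels' protocols. Which software summarized the probes is not given in the sources used here.

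Genes were named by the supplied platform annotation, and the RefSeq gene table gives the same symbol for every member. No genome build is named there, so no positions are given. Intensities were offset by 16, taken to log2 and quantile normalized, since array medians differed by up to 1.52 on the log2 scale. After setting control probe sets aside, the brighter part of the remaining 52766 by mean, from the 50th percentile up, was tested (26383). Limma 3.58.1 (R 4.3.3) fitted 1 mean per group over 6 arrays, with 3 residual degrees of freedom, two-sided moderated tests and Benjamini-Hochberg adjustment over all probe sets, at a threshold of 0.05. The fitting steps were checked on simulated arrays with large planted differences and less spread than these data. That check does not show how the tests behave on these 6 arrays. An exact permutation test of 2 monkeys against 2 cannot give a p below 0.333 and was not used.

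Named members differ by 1 or more on the log2 scale without overlap of the normalized groups, up to 8 a direction by smallest unadjusted p. Signals are also given for 12 core release genes, and values for up to 3 listed pathway genes a comparison. VAMP4, VAMP7, VAMP8, STX3, STX8, STX10, STX12, STX16, SNAP47, STXBP3, SYT17 and DNM3 were added to show each role, after their values were seen. The members, lists and settings were chosen with earlier results of these data known.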

Additional observations from a re-analysis of the deposited data

How the results depend on the processing

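With 2 monkeys per group and floors that differ between arrays, no member difference passed in the unweighted fit of all 6 arrays, and dim genes have only bounds. Over all tested probe sets the median log2 difference was 0.17 after and -0.14 before quantile normalization with estrogen against placebo. It was -0.03 and -0.17 with both hormones against placebo, and -0.22 and 0.06 with both hormones against estrogen. The members' median in the same comparisons was 1.57, 0.38 and -1.40 with median-centering, and with the share above the floor as a covariate it was -0.42 with estrogen against placebo and 0.16 with both hormones against estrogen. In that covariate fit CADPS2 (-0.11), SYT1 (-2.82) and SV2B (-0.85) changed sign for estrogen minus placebo, and SNAP91 (-1.0), SYT10 (-0.59), SYT1 (1.81), DNM1 (0.43), SYT3 (1.15) and STX18 (0.53) for both hormones minus estrogen; the cause was not tested. Leaving out 1 array at a time gave members' medians of 0.31 to 0.66, -0.69 to 0.41 and -1.09 to -0.19, and 0 calls except 3599 for both hormones minus estrogen without estrogen+progesterone 1. Weighting arrays gave 434 calls for estrogen minus placebo. The offset, the filter, a trended prior, fits of 2 groups, the mean over probe sets and no normalization gave 0 calls where they were tested and kept the sign of every named member difference. Same-numbered arrays shared only a number (deviations correlated at -0.0633 to 0.0822). With the replicate block limma called 0 probe sets in each comparison and the members' medians were 0.41, -0.22 and -0.61, as without it.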

Other observations

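Members with a high rank on estrogen+progesterone 2, where few genes were above the floor, are given here as values, chosen after they were seen. SNAP91 was at the 95.2 percentile on that array and between 31.9 and 49.9 on the other 5. VAMP2 was at 94.2 there and between 18.4 and 66.3 on the others. SYT10 was at 83.7 there and between 31.4 and 74.6 elsewhere, and its second probe set at 75.1 against 0.7 to 34.9. In the other direction SYT17 was at 3.0 on estrogen+progesterone 2 and between 80.1 and 94.4 on the other 5 arrays.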
